A study of Mus musculus with 4 samples.

Results

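The p38 MAP kinases and the kinases directly above and below them were examined in differentiating C2C12 cells, an established clonal line of mouse myoblasts. Members were taken by gene symbol: the 4 p38 genes Mapk14, Mapk11, Mapk12 and Mapk13, the activating kinase genes Map2k3, Map2k6 and Map2k4, and the substrate kinase genes Mapkapk2 and Mapkapk3. Of these 9 symbols, 7 were found among the 13824 gene symbols in the files, with 21 of the 36231 transcripts. Mapk13 and Mapkapk3 were not analysed here.

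The series held 4 RNA-seq libraries. Cells grown in medium with 10% fetal bovine serum were transfected with siRNA at 30 nM by Lipofectamine and then held for 48 h in medium with 2% horse serum, which sets off differentiation. In 2 libraries the siRNA was scrambled, and in 2 libraries, called siMEF2A, it was directed against the transcription factor gene Mef2a. No source used here gives the siRNA sequences. The labels do not say whether the libraries of a group stem from different cultures, and the p-values therefore rest on a spread between libraries that may be technical. Values are FPKM, fragment counts scaled to transcript length and library size, so that levels of different genes can be set side by side per length.

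p38 kinases relay stress and cytokine signals. A cascade of kinases ends in MAP2K3 or MAP2K6 (also called MKK3 and MKK6), which phosphorylate p38 on the threonine and the tyrosine of a Thr-Gly-Tyr motif in its activation loop, and active p38 then phosphorylates transcription factors, among them MEF2 proteins, and further kinases such as MAPKAPK2. In myoblasts p38 alpha, the product of Mapk14, is known as a driver of differentiation, and p38 gamma, the product of Mapk12, is known for its abundance in skeletal muscle. RNA levels do not show whether a kinase is active.

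The Thr-Gly-Tyr codons mark what the p38 genes share, and they are printed in capitals with 18 bases on each side, 5′ to 3′ on the coding strand, from GENCODE M21 transcripts on mm10. In Mapk14 they start at codon 180 (chr17:28728381-28728425, plus strand), in Mapk11 at codon 180 (chr15:89145848-89145892, minus strand) and in Mapk12 at codon 183 (chr15:89134658-89134702, minus strand). All 5 coding Mapk14 transcripts of the files hold these codons.
Mapk14: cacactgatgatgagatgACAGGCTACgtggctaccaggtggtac
Mapk11: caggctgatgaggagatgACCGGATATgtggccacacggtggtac
Mapk12: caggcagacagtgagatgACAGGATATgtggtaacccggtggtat

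Mapk14 itself is spliced with either of a pair of 80-base coding exons, and these tell its transcripts apart. They are printed with capitals at the positions where they differ, and 39 of their 80 positions (48.8%) are identical without gaps. The upstream exon (chr17:28737011-28737090, plus strand) is in 3 transcripts of the files, called here the main transcript (ENSMUST00000114752), the upstream-exon transcript (ENSMUST00000062694) and the short-frame transcript (ENSMUST00000114758). The downstream exon (chr17:28740680-28740759, plus strand) is in the downstream-exon transcript (ENSMUST00000004990). A short transcript (ENSMUST00000124886) and a retained-intron transcript (ENSMUST00000151613) hold neither.
Upstream exon: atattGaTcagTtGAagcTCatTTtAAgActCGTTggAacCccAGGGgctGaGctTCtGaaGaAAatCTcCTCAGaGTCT
Downstream exon: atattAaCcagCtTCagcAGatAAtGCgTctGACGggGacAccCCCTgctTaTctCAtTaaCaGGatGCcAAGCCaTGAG

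The targeted gene Mef2a gave 25.8 and 32.2 FPKM with scrambled siRNA and 12.7 and 14.3 FPKM with its own, 46.5% of the scrambled mean. Depth relative to scrambled replicate 1, read from low FPKM values, was estimated at 1.05 for scrambled replicate 2 and at 0.849 for both siMEF2A replicates. These are rough estimates from the commonest ratio of low values. It was shared by 16 of 600 genes for scrambled replicate 2, and by 18 and 11 for siMEF2A replicates 1 and 2. Absolute depth is unknown. Of 9 myoblast and myotube markers, 7 were in the files, at a summed 709 to 791 FPKM in scrambled and 421 to 475 FPKM in siMEF2A. Of the 7, limma called 4 lower (Myh3, Ckm, Tnnt2 and Myog), against 1.18% of all genes tested. All 7 had siMEF2A below scrambled in every library, against 9.18% of all genes. The part of this shift in the results given here was not tested. In RNA from whole cultures, fewer cells of a type and less RNA per cell cannot be told apart. Cdh15 and Acta1, the other 2 markers, were not analysed here. Among markers of other cell types, 0 of 5 for endothelial cells, 1 of 5 for macrophages and blood cells and 3 of 5 for fat cells were in the files. Cd68 was at 1.75 to 1.78 FPKM in scrambled and 1.61 to 1.70 FPKM in siMEF2A, and the fat cell genes Cebpa, Pparg and Fabp4 together at 7.78 to 8.49 against 7.98 to 8.66 FPKM. Within that sum Fabp4 was at 50.7% of scrambled (limma adjusted p = 0.110) and Pparg at 129% (limma adjusted p = 1.00), both with groups apart in opposite directions.

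Among the p38 kinase genes, the sum of Mapk14 was higher in both siMEF2A libraries without passing the test, while Mapk12 and Mapk11 had overlapping groups. Mapk14 (p38 alpha, chromosome 17, 28691329 to 28748406, plus strand) was at 15.9 and 19.0 (scrambled) against 21.6 and 23.4 FPKM (siMEF2A). Both siMEF2A libraries lay above both scrambled ones. The mean went from 17.4 ± 2.18 to 22.5 ± 1.25 FPKM (SD, n = 2 each), or 129% of scrambled. On the log2(FPKM + 1) scale used for every test here the difference was 0.36 (SE 0.15, 95% interval 0.04 to 0.67), with a limma adjusted p of 0.604, which was between 0.0676 and 1.0 over the alternative settings.

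Mapk12 (p38 gamma, chromosome 15, 89130584 to 89140703, minus strand) was at 24.1 and 23.2 (scrambled) against 22.9 and 23.2 FPKM (siMEF2A). The second siMEF2A library lay inside the scrambled range, and the log2 difference of -0.04 had a 95% interval of -0.34 to 0.27. Mapk11 (p38 beta, chromosome 15, 89142486 to 89149628, minus strand) was at 8.98 and 7.99 (scrambled) against 8.18 and 8.70 FPKM (siMEF2A), with both siMEF2A values inside the scrambled range. Its log2 difference was -0.01 (95% interval -0.31 to 0.30). Mapk12 lies 1782 bases downstream of Mapk11 on the same strand, and each had 1 transcript in the files.

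In the scrambled libraries Mapk12 was the most abundant of these p38 genes. It took 49.3% and 46.3% of the FPKM of the 3 genes together, against 32.4% and 37.8% for Mapk14 and 18.3% and 15.9% for Mapk11. In the siMEF2A libraries Mapk12 took 43.4% and 42.0% and Mapk14 41.1% and 42.3%, so that the ranges of alpha and gamma overlapped. The ratio of Mapk14 to Mapk12 was 0.657 and 0.817 in scrambled and 0.946 and 1.01 in siMEF2A. Without its short transcript Mapk14 was at 17.3 and 18.9 FPKM in siMEF2A, and at 15.3 and 16.8 FPKM with transcripts weighted by length. Both were under Mapk12 at 22.9 and 23.2 FPKM, so the overlap rests on the plain sum over Mapk14 transcripts. The shares and ratios are given as a description and were not tested. With 2 libraries against 2, an exact two-sided permutation test cannot give a p under 0.333.

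Of the activating kinases, Map2k3 was by far the most abundant, and none passed the test. Map2k3 (chromosome 11, 60932033 to 60952811, plus strand) was at 51.5 and 53.5 (scrambled) against 57.1 and 56.1 FPKM (siMEF2A). The siMEF2A libraries were the higher ones by a small margin, at 108% of scrambled, and the log2 difference was 0.11 (SE 0.15, limma adjusted p = 1.00).

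Map2k6 (chromosome 11, 110399122 to 110525522, plus strand) encodes the other main p38 activator and was the lowest member, at 3.19 and 3.52 (scrambled) against 4.11 and 3.89 FPKM (siMEF2A). Its siMEF2A libraries were again the higher ones, at 119% of scrambled with a log2 difference of 0.20 (SE 0.14, limma adjusted p = 1.00). Map2k3 exceeded Map2k6 by 16.2 and 15.2 times in scrambled and by 13.9 and 14.4 times in siMEF2A.

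Map2k4 (MKK4, chromosome 11, 65688243 to 65788297, minus strand) mainly activates JNK and can also act on p38. It was at 19.5 and 22.6 (scrambled) against 20.4 and 22.4 FPKM (siMEF2A), with both siMEF2A values inside the scrambled range and a log2 difference of 0.02 (95% interval -0.29 to 0.34).

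Below p38, Mapkapk2 (chromosome 1, 131053700 to 131097826, minus strand) encodes MK2, a kinase that p38 alpha and beta switch on and that controls the stability of cytokine mRNAs. It was at 30.9 and 35.4 (scrambled) against 31.9 and 35.6 FPKM (siMEF2A). The groups overlapped, with a log2 difference of 0.03 (95% interval -0.29 to 0.34).

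**Figure D1:**
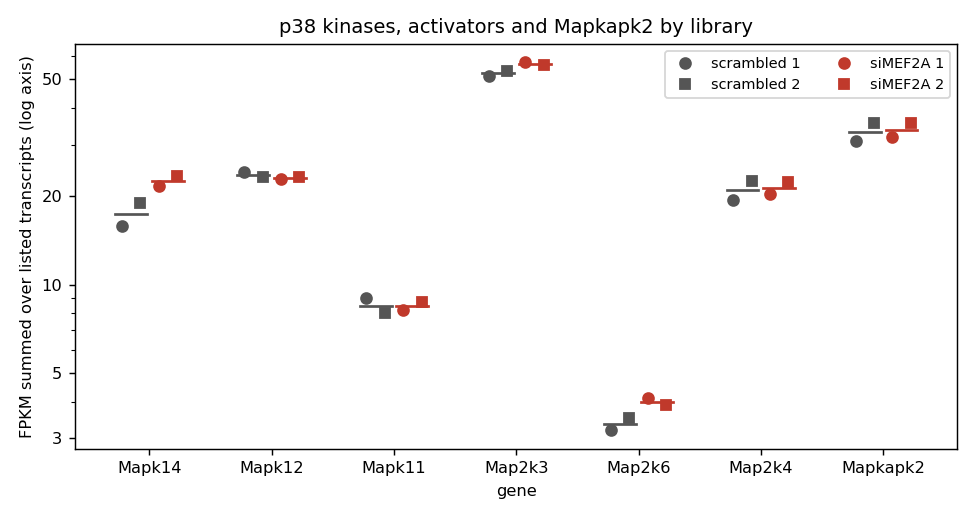
FPKM of each gene by library on a log axis, with points for libraries and short lines for the mean of each group (n = 2). The siMEF2A points lie above the scrambled ones for Mapk14 (21.6 and 23.4 against 15.9 and 19.0 FPKM), Map2k3 and Map2k6, and the groups overlap for the other 4 genes.

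Across the 7 genes, limma called 0 at an adjusted p under 0.05, against 1.38% of the 11846 genes tested (0.194% higher and 1.18% lower in siMEF2A). At an unadjusted p under 0.05 there was 1, Mapk14, against 6.16% of all genes. Groups were apart in 3 of the 7, each time with siMEF2A above, while 18.8% of all genes had siMEF2A above in every library, 9.18% had it below, and 28.0% had groups apart in either direction. The median log2 difference of the 7 was 0.03, beside 0.04 over all genes tested. The 95% intervals reached 0.30 to 0.32 to each side of the estimate, so that smaller differences could not be told from 0. These intervals are not adjusted for the number of genes tested. Larger differences could also miss the adjusted test, as that of Mapk14 did at 0.36. Only the interval of Mapk14 left out 0, and without scrambled replicate 1 it ran from -0.14 to 0.61, without scrambled replicate 2 from 0.10 to 0.86, without siMEF2A replicate 1 from -0.02 to 0.85 and without siMEF2A replicate 2 from -0.13 to 0.74. The signs of the Mapk11, Map2k4 and Mapkapk2 differences changed under some of the alternative settings.

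**Figure D2:**
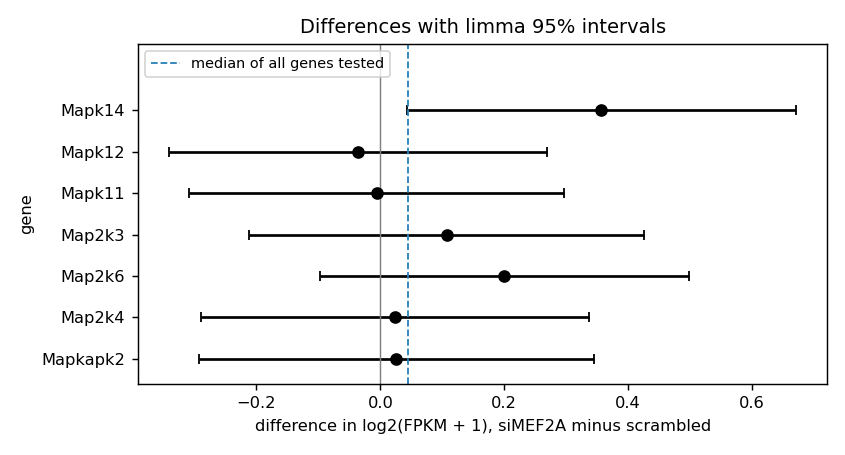
Difference in log2(FPKM + 1), siMEF2A minus scrambled, with the 95% interval of the limma fit for each of the 7 genes. The dashed line is the median of all genes tested (0.04), and the interval of Mapk14 (0.04 to 0.67) is the one that leaves out 0.

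By level, the order in scrambled was Map2k3, Mapkapk2, Mapk12, Map2k4, Mapk14, Mapk11 and Map2k6, with means from 52.5 down to 3.35 FPKM. Map2k3 was above 85.8% of the genes tested and Map2k6 above 18.8%. No neighbours in this order overlapped, although Map2k4 (19.5 to 22.6 FPKM) lay close to Mapk14 (15.9 to 19.0 FPKM) and to Mapk12 (23.2 to 24.1 FPKM). In siMEF2A, Mapk12 (22.9 to 23.2 FPKM), Mapk14 (21.6 to 23.4 FPKM) and Map2k4 (20.4 to 22.4 FPKM) were adjacent, and Mapk14 overlapped with each of the others. Without its short transcript Mapk14 (17.3 to 18.9 FPKM) lay under both.

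Of the Mapk14 transcripts, the short one was higher and the upstream-exon one lower in both siMEF2A libraries than in both scrambled ones. Mapk14 had 6 transcripts in the files, and limma's diffSplice, which asks whether a transcript differs between groups by another amount than the gene's other transcripts, called 2 of them, the short transcript upward and the upstream-exon transcript downward. These were the only calls among 9 transcripts of the 3 member genes with at least 2 transcripts tested, against a background of 0.299% of 17072 transcripts. For both, an unadjusted p under 0.05 in that test follows from the call itself. It was found for 6.53% of all transcripts. Each of these 2 Mapk14 transcripts reached the minimum mean of 1 FPKM only through the group where it was high. The short transcript averaged 0.969 FPKM in scrambled and 4.41 FPKM in siMEF2A, and the upstream-exon transcript 1.88 and 0.270 FPKM. Their calls beside the background shares are therefore given as a description.

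**Figure D3:**
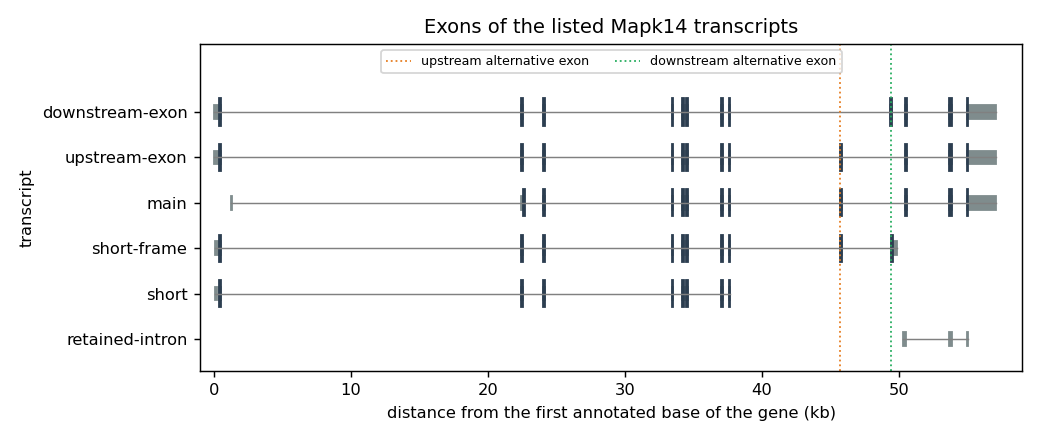
Exons of the 6 Mapk14 transcripts against the distance in kb from the gene's first annotated base, from GENCODE M21. Tall boxes are coding and short boxes non-coding, and boxes of short exons are widened to be visible. The short transcript stops before either alternative exon (dotted lines), and the main transcript starts 1239 bases into the gene.

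The main transcript held 65.8% to 70.2% of the gene's FPKM in each of the 4 libraries. It was at 10.6 and 13.3 (scrambled) against 14.2 and 15.6 FPKM (siMEF2A). It starts at a first exon of its own, and its annotated reading frame of 283 codons equals the end of the 360-codon frame of the upstream-exon transcript, without the first 77 codons. The siMEF2A libraries were the higher ones, with a log2 difference of 0.31 (95% interval -0.08 to 0.70, limma adjusted p = 1.00 over all transcripts), which was 0.15 without scrambled replicate 1 and 0.46 without scrambled replicate 2.

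The short transcript (866 bases, chromosome 17, 28691440 to 28728975) was at 0.416 and 1.52 (scrambled) against 4.34 and 4.47 FPKM (siMEF2A). Both siMEF2A libraries were well above both scrambled ones, and its share of the gene went from 2.62% and 8.03% to 20.1% and 19.1%. Its log2 difference exceeded the mean of the gene's other tested transcripts by 1.69 (diffSplice adjusted p = 0.0136, between 2.41e-05 and 0.172 over the alternative settings). That mean includes the upstream-exon transcript, whose own log2 difference was -1.20, and this enlarges the value. With a pseudocount of 0.1 FPKM the value was 2.87 and the call was lost (diffSplice adjusted p = 0.172). On its own, against no change, the transcript had a log2 difference of 1.52 (SE 0.27) and did not pass (limma adjusted p = 0.121), with 2.30 at a pseudocount of 0.1 FPKM.

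The upstream-exon transcript, full-length at 3548 bases, went the other way. It was at 2.32 and 1.44 (scrambled) against 0.000920 and 0.540 FPKM (siMEF2A), so that it was close to 0 in siMEF2A replicate 1. Its log2 difference was 1.70 under the mean of the other transcripts, written by diffSplice as -1.70 (adjusted p = 0.0136, between 3.07e-05 and 0.118 over the alternative settings). Without siMEF2A replicate 1 the value was -1.41 and the call was lost (adjusted p = 0.0780), and with a pseudocount of 0.1 FPKM it was -3.67 (adjusted p = 0.0434). Against no change the transcript had a log2 difference of -1.20 (SE 0.28, limma adjusted p = 0.287), and of -2.93 at a pseudocount of 0.1 FPKM. The mean used by diffSplice here includes the short transcript, whose own log2 difference was 1.52, and this enlarges the -1.70 in size.

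The remaining Mapk14 transcripts had overlapping groups. The downstream-exon transcript was at 0.889 and 1.41 (scrambled) against 1.21 and 1.10 FPKM (siMEF2A). Among transcripts with either exon, the share of the downstream one was 6.29% and 8.54% of FPKM (scrambled) against 7.54% and 6.30% (siMEF2A), with overlapping ranges. The retained-intron transcript was at 1.31 and 0.868 FPKM against 1.30 and 1.37 FPKM, and the short-frame transcript was between 0.286 and 0.547 FPKM in all 4 libraries.

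**Figure D4:**
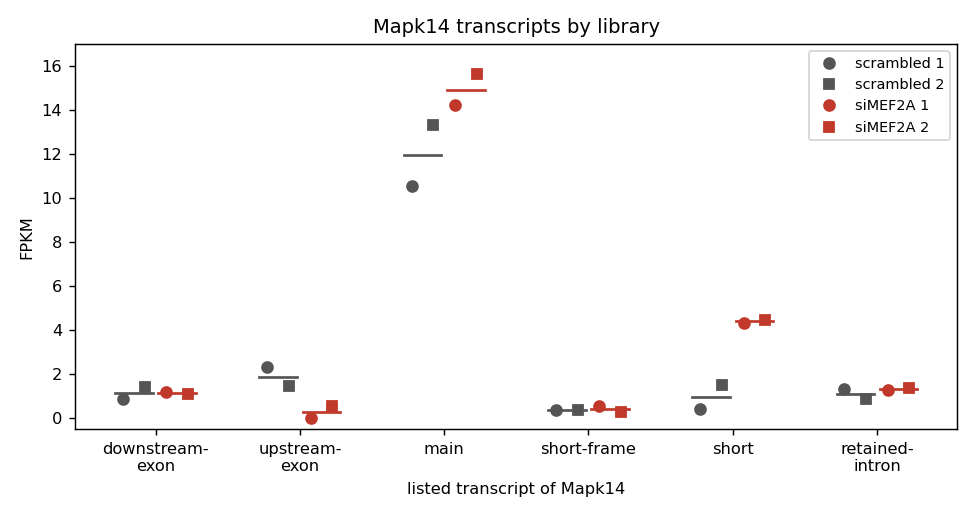
FPKM of each Mapk14 transcript by library, with points for libraries and short lines for group means (n = 2). The short transcript moves from 0.416 and 1.52 to 4.34 and 4.47 FPKM and the upstream-exon transcript from 2.32 and 1.44 to 0.000920 and 0.540 FPKM.

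These 2 transcripts are hard to separate by sequence. All bases of the short transcript are also in other Mapk14 transcripts of the files, and its coding part equals the start of that of the upstream-exon transcript. What sets it apart is a 116-base intron in the 5′ untranslated region, between 28691573 and 28691690, and its end, which GENCODE marks as not found. Estimates of such transcripts draw on shared fragments and are not independent, whereas diffSplice treats them as independent.

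Of the difference of 5.10 FPKM in the mean Mapk14 sum, the short transcript made up 3.44 FPKM, the main transcript 2.99 FPKM and the upstream-exon transcript -1.61 FPKM. The short and the upstream-exon transcripts summed made up 1.82 FPKM, less than the main transcript. Their sum was 2.73 and 2.97 FPKM with scrambled siRNA and 4.34 and 5.01 FPKM with siMEF2A, 164% of scrambled with groups apart. This sum joins transcripts of 866 and 3548 bases, and a fragment given to the shorter one adds more FPKM. The sum therefore cannot be read as a rise in the fragments of this pair. With each FPKM multiplied by its transcript's length, the pair was lower in both siMEF2A libraries than in both scrambled ones, opposite to the plain sum. Without the short transcript the gene was at 15.5 and 17.4 (scrambled) against 17.3 and 18.9 FPKM (siMEF2A). The groups then overlapped, and the log2 difference was 0.13 (95% interval -0.18 to 0.44, limma adjusted p = 1.00). Weighting each transcript by its length, which follows the number of fragments and depends less on which transcript they were given to, left a log2 difference of 0.18 (95% interval -0.13 to 0.48), also with overlapping groups. Both values were added after the transcripts had been seen.

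Every other member had a single dominant protein-coding transcript. That of Map2k3 held 88.4% to 92.3% of the gene in the 4 libraries, that of Map2k4 87.9% to 89.3% and that of Map2k6 86.2% to 97.0%. The Map2k3 one was at 45.6 and 49.4 (scrambled) against 51.3 and 50.4 FPKM (siMEF2A), and the Map2k4 one at 17.4 and 19.9 FPKM against 18.1 and 19.9 FPKM. The Map2k6 one was at 3.10 and 3.20 FPKM against 3.54 and 3.60 FPKM, which kept its groups apart. A Map2k3 transcript with a retained intron was between 2.69 and 3.79 FPKM and a shorter coding transcript of Map2k4 between 1.20 and 1.88 FPKM, both with overlapping groups. Another 8 of the 21 member transcripts, the short-frame transcript of Mapk14 among them, had a mean under 1 FPKM and were not tested, with values from 3.68e-05 to 0.968 FPKM. Over all transcripts tested, limma called 0 of 13 member transcripts, against 0.233% of 23624. An unadjusted p under 0.05 was found for 2, the short and the upstream-exon transcripts of Mapk14, against 5.63% of all transcripts. Both reached the minimum mean of 1 FPKM only through the group where they were high, and their estimates are not independent. That count is therefore given as a description too.

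The pathway around p38 was described with 6 further lists of genes. Over all genes tested limma called 0.194% higher and 1.18% lower, so at these shares few or no calls would be expected in lists of this size. Of the upstream kinases and adaptors, 25 of 30 were tested and 0 passed limma in either direction, with 22 differences above 0 and a median of 0.09, while 63.8% of all genes had a difference above 0. Other scaling moved the median of all genes from 0.04 to between -0.0034 and 0.018, so that counts above 0 here and in the next lists depend on it. The lowest of the list were a pair of stress-induced activators of the p38-activating kinase MAP3K4. Gadd45b was at 7.55 and 7.15 (scrambled) against 4.87 and 5.05 FPKM (siMEF2A) (log2 difference -0.49, limma adjusted p = 0.126). Gadd45g was at 20.9 and 20.4 FPKM against 14.8 and 17.5 FPKM (-0.34, limma adjusted p = 0.660). Both genes had siMEF2A below scrambled in every library. Of the 25 tested, 2 had it below and 2 above, against 9.18% and 18.8% of all genes. Boc, a cell surface protein that with CDON promotes p38 activity in myoblasts, was at 0.870 and 0.852 FPKM against 1.28 and 1.00 FPKM (limma adjusted p = 1.00). With means of 0.861 and 1.14 FPKM, Boc reached the minimum of 1 FPKM only through siMEF2A, where it was high. It is among the 2 genes counted as above.

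All 5 other kinases phosphorylated by p38 were tested and 0 passed limma, with 4 differences above 0 and a median of 0.13. The smallest p belonged to Mapkapk5, which encodes a kinase related to MAPKAPK2, at 26.7 and 24.0 (scrambled) against 28.4 and 28.3 FPKM (siMEF2A). The genes of MSK2 and MSK1, kinases that phosphorylate histone H3 and CREB, followed with Rps6ka4 at 111% and Rps6ka5 at 116% of scrambled. In these 3 genes, named for the smallest p of the list, siMEF2A was the higher group in every library. Of the 5 tested, 3 had siMEF2A above and 0 below, against 18.8% and 9.18% of all genes.

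Among substrates and binding partners of p38, 27 of 29 were tested, with a median of 0.02. Limma called 1 lower and 0 higher, against 1.18% and 0.194% of all genes. The gene called lower was Mef2a, the target of the siRNA itself (log2 difference -1.05, SE 0.15, limma adjusted p = 2.53e-04). Myod1, the myogenic factor, was at 31.0 and 32.9 (scrambled) against 20.9 and 24.9 FPKM (siMEF2A) (log2 difference -0.47, limma adjusted p = 0.216). Lsp1, an actin-binding substrate of MK2, was at 99.6 and 100.5 FPKM against 74.0 and 83.2 FPKM (-0.35, limma adjusted p = 0.764). Both had siMEF2A below scrambled in every library. Of the 27 tested, 4 had it below, Mef2a among them, and 5 above, against 9.18% and 18.8% of all genes.

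Of the phosphatases that act on p38, 9 of 13 were tested and 0 passed, with 8 differences above 0 and a median of 0.07. Dusp4, which encodes a nuclear MAP kinase phosphatase, was at 7.86 and 9.08 (scrambled) against 10.8 and 11.3 FPKM (siMEF2A) (log2 difference 0.35, limma adjusted p = 0.586). Dusp2 was at 113% and Ppm1a at 108% of scrambled, the latter with overlapping groups. Dusp6, the phosphatase of ERK named in the series' title, had siMEF2A the higher in both libraries, with a log2 difference of 0.34 that was close to that of Mapk14 (limma adjusted p = 0.613).

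Of the mRNAs whose stability MK2 and the protein TTP control, 9 of 15 were tested and 0 passed, with 5 differences above 0 and a median of 0.09. The chemokine gene Ccl2 was at 216 and 214 (scrambled) against 178 and 146 FPKM (siMEF2A) (log2 difference -0.41, limma adjusted p = 0.635), and its difference was -0.27 without siMEF2A replicate 2. Ccl7, its neighbour in the chemokine family, was at 145 and 125 FPKM against 123 and 90.0 FPKM, and the cytokine gene Lif at 76.9% of scrambled. All 3, named for the smallest p of the list, had siMEF2A below scrambled in every library. Of the 9 tested, 4 had it below and 3 above, against 9.18% and 18.8% of all genes.

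Of the other MAP kinases and their activators, 12 of 14 were tested and 0 passed, with 7 differences above 0 and a median of 0.03. Mapk3, the gene of ERK1, was at 67.0 and 84.0 (scrambled) against 86.6 and 92.9 FPKM (siMEF2A) (log2 difference 0.25, limma adjusted p = 1.00), and its difference was 0.09 without scrambled replicate 1 and 0.41 without scrambled replicate 2. Mapk15 was at 85.2% and Map2k7, an activator of JNK, at 92.4% of scrambled.

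**Figure D5:**
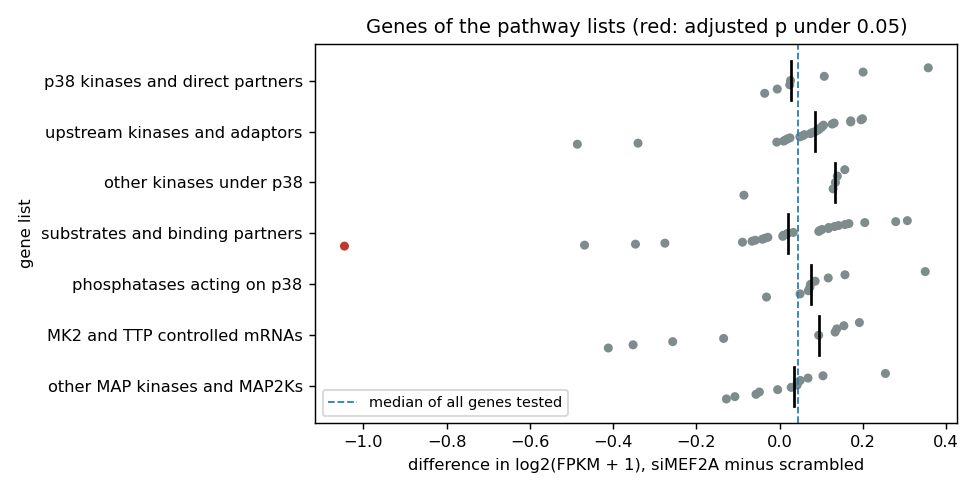
Difference in log2(FPKM + 1), siMEF2A minus scrambled, of each tested gene in the 7 lists, with a black bar at the median of each list and a dashed line at the median of all genes tested (0.04). The point that passed limma, in red at -1.05, is Mef2a.

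The genes whose profile over the 4 libraries was nearest to that of Mapk14, by Euclidean distance between log2(FPKM + 1) deviations from the gene's own mean, were Mbnl3 (0.00872), Gprc5a (0.0203) and Aim1 (0.0250). Within a distance of 0.1 there were 101 genes, and the median distance of all genes tested was 0.374.

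The MEF2 consensus motif was searched on both strands of RefSeq promoter windows of 300 bases around gene starts (GRCm38.p6). It was found in 0 of the 14 windows of the 9 genes and in 3.19% of all 32851 windows.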

How the data were processed

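The deposited files hold 1 FPKM value per Ensembl transcript and library, which the authors made from RNA-seq reads, per the file headers. CASAVA, Trimmomatic, TopHat, Bowtie, Cufflinks and the build mm10 are listed, without versions, per the submitters' processing notes. No source used here gives the annotation, the settings, the use of strand or the scaling between libraries, and reads shared by overlapping or similar genes are uncertain. File columns carry other replicate numbers than the titles, and libraries are named by title. The small RNA gene Mir5105 held at least 98.9% of each library's summed FPKM.

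FPKM were summed per gene symbol, without 1 symbol found on several chromosomes. Tests were made on log2(FPKM + 1), which understates changes of low genes, for the 11846 genes that averaged 1 FPKM or more. The groups (n = 2 each) entered limma 3.58.1 (R 4.3.3) with an intensity trend. Tests were two-sided with Benjamini-Hochberg adjustment over all genes, called under 0.05, on 2 residual and 19.1 prior degrees of freedom. Single transcripts were tested likewise, and by limma's diffSplice against the rest of their gene. The code was tested on simulated data. Transcript structures came from GENCODE M21, which held 97.3% of the transcripts. Alternatives covered scaling, pseudocount, filter, moderation, replicate block, left-out libraries and how transcripts were summed.

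The members and lists were chosen with earlier results of these data known. Named were all members, Mef2a, Dusp6, the list genes that passed or had the 3 smallest p, and the 3 genes nearest to Mapk14. Values of the Mapk14 sum without its short transcript, or weighted by length, and of the fit without small RNA genes were added after the data were seen. The values of 1 further marker list are not reported here.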

Additional observations from a re-analysis of the deposited data

How the results depend on the processing

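No member passed limma under any alternative (0 of 7 each time), and the Mapk14 difference stayed above 0 in all 18. The count of genes called (163) was 106 with quantile normalization, 248 with robust moderation, 251 without small RNA genes and 191 to 247 with a library left out, the highest without scrambled replicate 2. Higher genes (23) numbered 11, 13 and 9 with median-ratio, upper-quartile and quantile scaling, 72 with robust moderation, 76 with protein-coding transcripts only, 75 without small RNA genes and 43 to 80 with a library left out. Lower genes (140) numbered 90 at a minimum of 5 FPKM. Transcripts called (55) numbered 0 without a filter, 113 at a minimum of 5 FPKM, 31 without the intensity trend, 99 with robust moderation and 43 to 210 with a library left out. Transcripts called by diffSplice (51) numbered 8 at a minimum of 5 FPKM and 94 to 237 with a library left out.

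Replicate numbers are shared by 2 pairs only, and deviations of same-numbered libraries correlated at 0.172 over 11846 genes. With 2 libraries in each group this correlation can neither show nor exclude a pairing. With the replicate block limma called 393 genes (144 higher, 249 lower), 0 transcripts and 31 transcripts by diffSplice. The block gave Mapk14 an adjusted p of 0.0676, its short transcript 0.119 and its upstream-exon transcript 0.118 by diffSplice, so that both diffSplice calls were lost. Gadd45b (adjusted p = 0.0143) and Myod1 (adjusted p = 0.0212) passed limma with the block.

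Some differences that were not called changed direction. Map2k4 was at -0.028, -0.014 and -0.0093 with median-ratio, upper-quartile and quantile scaling and at -0.078 to 0.13 with a library left out. Mapkapk2 was at -0.027 and -0.013 with the first 2 of these and at -0.071 to 0.12 with a library left out. Mapk11 was at -0.081 to 0.069 and Ppm1a (0.12 with all libraries) at -0.0022 to 0.24 with a library left out. The downstream-exon transcript of Mapk14 was at -0.0052 and -0.0067 with median-ratio and upper-quartile scaling and at -0.16 to 0.19 with a library left out. Against the rest of its gene, where its difference was -0.19, it was at 0.036 with a pseudocount of 0.1, and the retained-intron transcript was at -0.27 to 0.29 with a library left out. The cause was not tested. The median of all genes was 0.045 and moved to between -0.0034 and 0.018 with other scaling.

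On their own, the short transcript passed limma without scrambled replicate 2 (adjusted p = 0.0202), siMEF2A replicate 1 (0.00977) or siMEF2A replicate 2 (0.0130), and the upstream-exon transcript without siMEF2A replicate 2 (0.00832). Where 1 library was left in a group, it was assumed to vary like the other group. diffSplice has no intensity trend, so that alternative was not run for it, and at a minimum of 5 FPKM neither transcript was tested. FPKM give no absolute depth, which limits what can be said of low transcripts.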
